A study of Glycine max with 12 samples.

Results

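Glyma.20G011400.1 is a soybean (Glycine max) gene model of chromosome 20 annotated as a member of the Glycine rich protein family. It is described here in 12 RNA-Seq libraries and was 1 of 56044 models in the table. It was chosen because of its level in the maturing seed coat, so its levels are given as a description and carry no test. The libraries represent 1 condition each and have no replicates, so no difference had a replicate check. The seed coat libraries were from W55 (Williams 55, i mutation, black seed) at 25–50 mg seed weight and from Williams (PI548631, yellow seed coat) at 5–6 mg, 25–50 mg, 200–300 mg desiccating and mature dry seed. Cotyledons were from Williams at 5–6 mg, 200–300 mg desiccating and mature dry seed, and embryo axes from Williams desiccating seed at 300–400 mg and 200–300 mg. Roots of 5-day Williams seedlings and furled leaves, 1–1.5 inches long, of adult Williams plants completed the set. All plants were grown in a greenhouse, and seeds were taken apart by hand. W55 is a single line that lacks a segment of the I locus on another chromosome, so it stands for that 1 event only. The study's pedigree places its spontaneous mutation in an isoline made by backcrossing disease resistance genes into Williams. W55 and Williams may thus differ elsewhere too.

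Glycine-rich proteins are plant proteins in which glycine makes up much of the chain, often as short repeats. Several are secreted into the cell wall, where they are known as structural proteins of vascular tissue, and others are made under stress. The family domain of this model also occurs in nodulins of legume roots. The seed coat is maternal tissue that encloses the embryo, passes nutrients to it, and then dies and hardens as the seed dries.

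Levels are RPKM, the number of aligned reads scaled to the length of the model (per kilobase) and to the mapped total of the library (per M, 1000000 reads). Whole numbers of aligned reads, called hits here, were recovered from the table with the known lengths of 48 models. The recovered length of this model was 611 nt. The mapped totals ranged from 14.7 M in the leaf to 187 M in the root. Each interval is a 95% exact Poisson interval and covers counting error only. Reads could align to several similar models, so hits of related genes are not fully separate.

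Glyma.20G011400.1 was abundant only in the 200–300 mg and dry seed coats, low in maturing embryo parts, and without a hit in 4 of 12 libraries. The W55 seed coat at 25–50 mg had 5.76 RPKM from 84 hits (4.59–7.13). In Williams seed coats the level was 0 RPKM at 5–6 mg, 0.577 RPKM at 25–50 mg, 8337 RPKM at 200–300 mg and 14437 RPKM in dry seed. These came from 0, 7, 574423 and 1009620 hits. Both maturing seed coats thus lay far above every younger one, and no other library overlapped them.

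In the embryo the level was much lower. Cotyledons had 0 RPKM at 5–6 mg, 27.6 RPKM at 200–300 mg (25.5–29.8) and 35.5 RPKM when dry (34.1–36.9). Embryo axes had 27.3 RPKM at 300–400 mg (26.0–28.7) and 16.0 RPKM at 200–300 mg (958 hits). Root and furled leaf had no hit. The 4 desiccating or dry embryo libraries were all above the young seed coats and spanned a 2.22-fold range.

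Ordered by level, the dry seed coat came first and the 200–300 mg seed coat second, followed by the dry cotyledon, the 200–300 mg cotyledon, the 300–400 mg axis, the 200–300 mg axis, W55 and the 25–50 mg Williams seed coat. The counting intervals of the 200–300 mg cotyledon and the 300–400 mg axis overlapped, while every other pair of neighbors in that order had separate intervals. The 4 libraries without a hit cannot be ranked. A count of 0 allowed up to 0.0287 RPKM in the 5–6 mg seed coat, 0.0268 RPKM in the 5–6 mg cotyledon, 0.0262 RPKM in the root and 0.333 RPKM in the shallower leaf library, taking 3 hits as the limit.

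**Figure D1:**
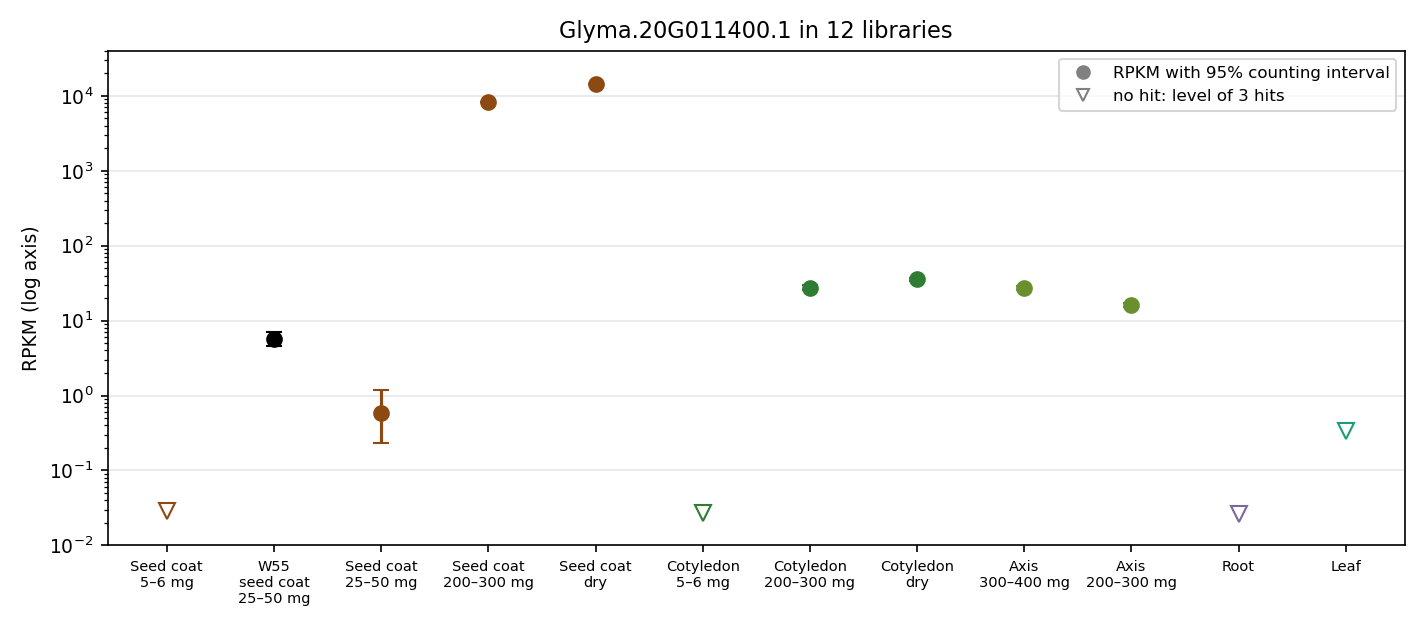
RPKM of Glyma.20G011400.1 (log axis) in each of 12 libraries, with 95% counting intervals as bars and the level of 3 hits as open triangles where no hit was found. The 2 maturing seed coats, at 8337 and 14437 RPKM, stand above all embryo parts, which reach at most 35.5 RPKM.

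The 2 maturing seed coats held 99.5% of the RPKM summed over the 12 libraries. The model ranked second of all models in the 200–300 mg seed coat, where it took 0.509% of the mapped total. Only Glyma.13G278000.1, a gamma-thionin (plant defensin) family model, was above it there, with 9583 RPKM. In the dry seed coat Glyma.20G011400.1 took 0.882% of the mapped total and stood at rank 3. Both models above it, Glyma.13G023300.1 with 20818 RPKM and Glyma.13G011900.1 with 15612 RPKM, belong to 508 models of chromosome 13 that have neither a Pfam domain nor an Arabidopsis match. Without those 508 models it ranked first in the dry seed coat, 1.45 times the next model, which was again Glyma.13G278000.1.

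The unannotated chromosome 13 models bear on every level because RPKM is a share of the library. Their share of summed RPKM was 47.6% for the dry seed coat, 75.7% for the seed coat of 5–6 mg and 54.0% for the cotyledon of that weight, against 2.73% to 20.6% in the other libraries.

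The tissue labels were checked against 10 seed coat marker models, matches of the Arabidopsis genes BAN, TT12, STK and TT16. Their summed level was 517 RPKM in W55 and 640, 454 and 125 RPKM in the 5–6, 25–50 and 200–300 mg Williams seed coats. It was 0.536 RPKM in the dry seed coat, where 0 of 10 reached 1 RPKM, so this list did not mark that library as seed coat. In the embryo, root and leaf libraries it was between 1.46 and 14.6 RPKM. Storage globulins (17 models), the reserve proteins of the embryo, summed to 617 RPKM in seed coats of 200–300 mg and 180 RPKM in dry ones. The cotyledons of those stages had 3313 and 2486 RPKM, but the 200–300 mg axis had 752 RPKM, near the seed coat of that weight. Oleosins (13 models), a further embryo list, summed to 315 and 484 RPKM in those seed coats. They summed to 2511 and 2369 RPKM in the cotyledons and 1757 RPKM in the 200–300 mg axis.

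Between the stages of the Williams seed coat the main step lay between 25–50 mg and 200–300 mg. The later library was 14458 times the earlier one, with an exact Clopper-Pearson 95% interval of 7017 to 35960 that is wide because of the 7 hits at 25–50 mg. On the log2(RPKM + 0.1) scale the difference was 13.59, rank 5 of the 32846 models that reached 1 RPKM in one or both libraries. Among those models 9.02% were at least 4-fold higher at 200–300 mg and 19.9% at least 4-fold lower. The 25–50 mg seed coat was at least 20.1 times the 5–6 mg one with the 0 hits there set at 3. This bound takes the 7 hits as exact, would be 8.08 at the lower end of their interval, and depended on scaling, with 48.0 as TPM and 8.04 with median-ratio scaling. The study lists the 25–50 mg libraries as paired-end reads of a Genome Analyzer and the desiccating and dry libraries as longer single reads of a HiSeq instrument, so stage and sequencing format cannot be told apart in this step. In bulk tissue, more RNA per cell and more cells of one type cannot be told apart either.

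The dry and the desiccating seed coat differed far less in this model, while most models were lower in the dry one. The dry seed coat had 1.73 times the RPKM of the 200–300 mg one (1.726–1.737), a log2 difference of 0.79. The median log2 difference of all 26156 models was −0.97, so relative to that median the model was 3.40 times higher. Only 1.15% of models were at least 4-fold higher in the dry seed coat, 26.5% were at least 4-fold lower, and 5.24% had a larger difference than Glyma.20G011400.1. The ratio depended on scaling and was 1.08 on the TPM scale and 2.78 when libraries were scaled by their median ratio. It was above 1 on every scale, and its size was not fixed by these data. The median of all models and the shares past 4-fold were taken on the deposited scale and would move with scaling too.

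The seed coat was compared with the embryo of the same seed stage. The 200–300 mg seed coat had 302 times the level of the cotyledon (280–327), and of 27303 models 19.6% were at least 4-fold higher and 3.52% at least 4-fold lower in that seed coat. Against the 200–300 mg axis the ratio was 521 (489–556), with 18.2% of 27858 models at least 4-fold higher and 4.02% lower. In dry seed the seed coat had 407 times the cotyledon level (391–423), with 4.53% of 21341 models at least 4-fold higher and 9.65% lower. By log2 difference the model ranked 40, 23 and 13 in these comparisons, so its seed coat bias was among the largest in each but was not the largest.

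Within the embryo the model differed by less than 2-fold between neighboring desiccating and dry stages. The 200–300 mg axis had 0.586 times the level of the 300–400 mg axis (0.541–0.636), and 1.14% of models were at least 4-fold higher and 0.124% lower in that comparison. Its log2 difference of −0.77, beside a median of −0.02, was rank 22184 of 23328 models, with 4.90% of models below it. The dry cotyledon had 1.29 times the level of the 200–300 mg cotyledon (1.18–1.40), and 0.981% of models were at least 4-fold higher and 1.73% lower.

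The embryo values were low relative to the seed coat even among models abundant there. The 200–300 mg cotyledon level was 0.331% of the seed coat level, whereas the median over 360 models with at least 100 RPKM in that seed coat was 96.5%. Of those 360 models 25 had a lower percentage, and none was at 0. The 200–300 mg axis was at 0.192% of the seed coat, with 28 of 360 models lower. The dry cotyledon was at 0.246%, with 10 of 323 models lower and a median of 58.2%. Many of the 323 models are unannotated chromosome 13 models, such as Glyma.13G023300.1 (18.0%) and Glyma.13G011900.1 (14.5%). That median therefore depends in part on them. Such models are also among the 360, where Glyma.13G023300.1 and Glyma.13G011900.1 were at 103% and 90.9% in the cotyledon.

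The 10 seed coat markers were read in the same way. Their sum in the 200–300 mg cotyledon was 9.26 RPKM, or 7.40% of the 125 RPKM in the seed coat, with 2 of 10 at 1 RPKM or more. In the axis it was 2.05 RPKM, or 1.64%, with 0 of 10 at 1 RPKM. The list was uneven. The 2 models matching STK, a MADS-box gene of the ovule and seed coat, held most of the seed coat sum and were at 0.383% (Glyma.04G257100.1) and 0.140% (Glyma.06G324400.1) in the cotyledon. The other 8 models summed to 8.94 RPKM in the cotyledon, 151% of their 5.91 RPKM in the seed coat. The part of seed coat RNA in the embryo values was not tested.

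**Figure D2:**
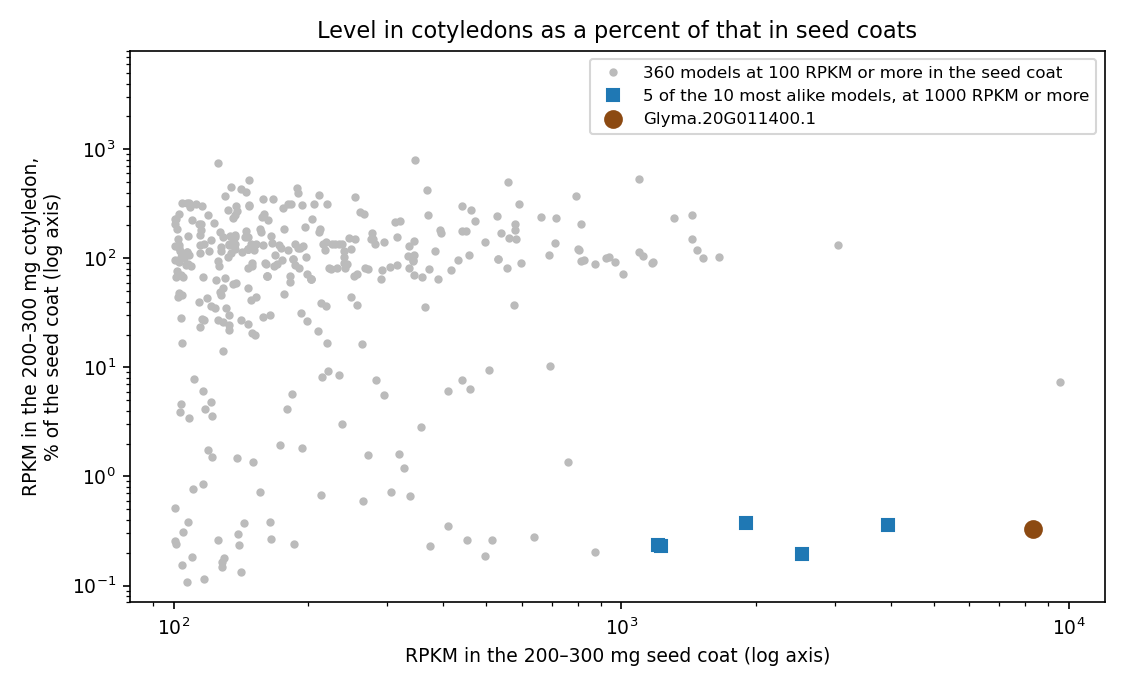
RPKM in the 200–300 mg cotyledon as a percent of that in the 200–300 mg seed coat (log axis) against the seed coat RPKM (log axis), 1 point per model. The median of the 360 models is 96.5%, while Glyma.20G011400.1 (0.331%) and 5 of its most alike models (0.195% to 0.378%) lie at the bottom right. The 5 were picked for likeness over libraries that include both plotted ones, so their place near it follows from that choice.

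W55 and Williams were compared at 25–50 mg, before the model was abundant. W55 had 5.76 RPKM from 84 hits, against 0.577 RPKM from 7 hits in Williams, a ratio of 9.99 (4.64–25.6). On the log2(RPKM + 0.1) scale the difference was 3.11, rank 12 of 31256 models. In this pair 0.227% of models were at least 4-fold higher in W55 and 0.461% at least 4-fold lower. The model stayed past the 4-fold limit with a pseudocount of 1 RPKM, when 6 models did, and with a minimum of 5 RPKM, when it ranked first of 15. The W55 level was nevertheless far below that of the 200–300 mg Williams seed coat, and with 1 library of each line the genotype and differences in seed stage within the weight class cannot be told apart.

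Related models with hits in that pair were mostly higher in W55, several of them from few hits. Glyma.07G176000.1, a second glycine-rich protein, had 2.21 RPKM from 33 hits in W55 and 0.563 RPKM from 7 hits in Williams, a ratio of 3.92 (1.71–10.5). Glyma.20G011300.1 had 4 hits in W55 and 0 in Williams, and Glyma.20G011500.1 had 0 hits in W55 and 2 in Williams. The counts of both models were too small to show a difference. Glyma.20G011600.1 had a ratio of 2.72 (2.53–2.93). The unannotated Glyma.02G258500.1 had 11 hits against 1, a ratio of 9.15 (1.33–394), and Glyma.14G052900.1 had 3 hits against 0. Both unannotated models were picked for likeness over libraries that include this pair. The median log2 difference of 4 measured family models, this one included, was 1.62, beside 0.03 over all models. The late embryogenesis abundant (LEA) and dehydrin list, proteins that protect cells during drying, summed to 97.0 RPKM in W55 and 121 RPKM in Williams. At least 4-fold higher in W55 were 0 of 10 measured members, beside 0.227% of all models, so this count tells little.

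Glyma.20G011400.1 lies in a run of 4 consecutive glycine-rich protein models, Glyma.20G011300.1 to Glyma.20G011600.1. Glyma.20G011300.1, the model before it, had 0.0310, 0, 3946 and 4884 RPKM in the Williams seed coats by stage. Glyma.20G011500.1, the next model, had 0, 0.181, 1227 and 2460 RPKM. Both followed the same course at lower levels, at 47.3% and 14.7% of Glyma.20G011400.1 in the 200–300 mg seed coat and at 33.8% and 17.0% in the dry one.

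Glyma.20G011600.1, the last model of the run, had the opposite course. At 25–50 mg it had 282 RPKM in W55, against 103 RPKM in Williams, a ratio of 2.72 (2.53–2.93). In the other Williams seed coats it had 3.78 RPKM at 5–6 mg, 0.0197 RPKM (1 hit) at 200–300 mg and 0.0971 RPKM (5 hits) in dry seed. It also had 6.43 RPKM in the 5–6 mg cotyledon and no hit in the 6 remaining libraries. It was thus highest in the 25–50 mg seed coats, where the other 3 models had at most 5.76 RPKM, and near 0 where they were highest.

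The models just outside the run did not share either course. Glyma.20G011100.1 and Glyma.20G011200.1, GRAM domain models, stayed at or below 0.274 RPKM in all 12 libraries. Glyma.20G011700.1, a Myb-like DNA-binding model, was between 0.398 and 4.31 RPKM in all 12 libraries and was highest in the leaf.

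**Figure D3:**
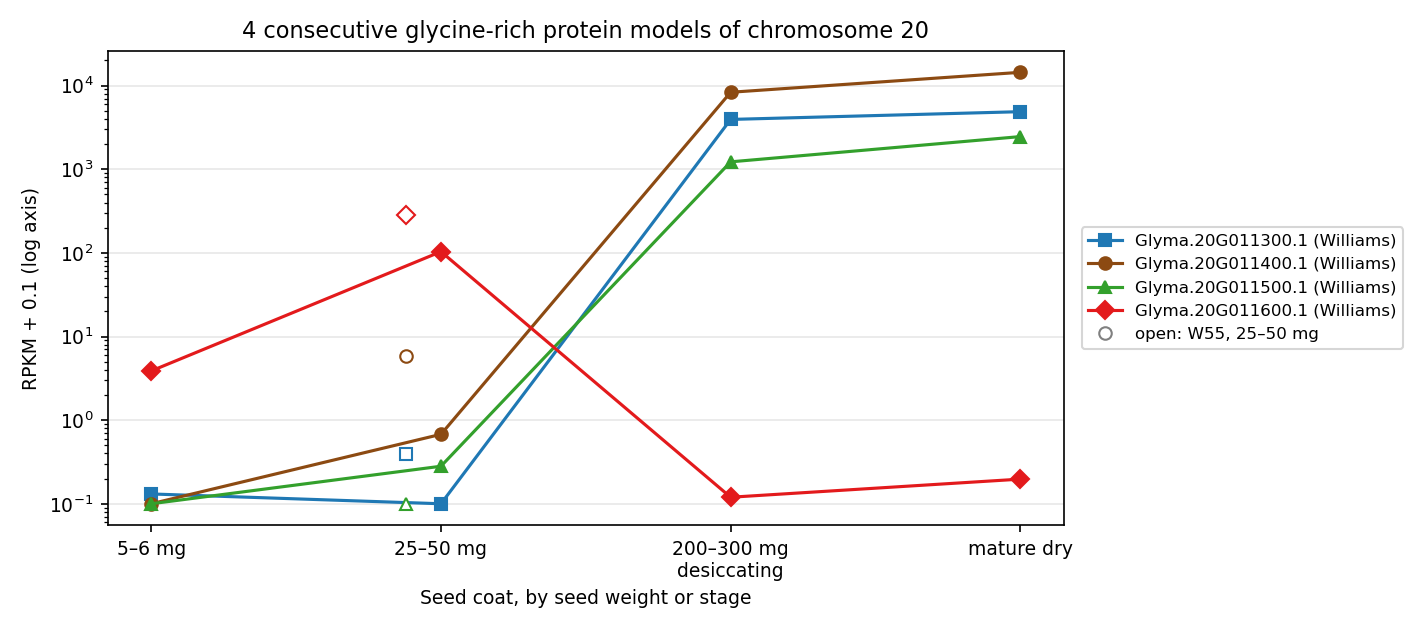
RPKM + 0.1 (log axis) of 4 consecutive glycine-rich protein models by seed coat stage, Williams as filled symbols joined by lines and W55 at 25–50 mg as open symbols set to the left of Williams. 3 models reach 1227 to 8337 RPKM at 200–300 mg, while Glyma.20G011600.1 peaks at 25–50 mg, with 282 RPKM in W55 and 103 RPKM in Williams.

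A pair of glycine-rich models on chromosome 7 shared the late seed coat course. Glyma.07G176000.1 had 0, 0.563, 2537 and 7206 RPKM in Williams seed coats by stage and at most 7.49 RPKM in the embryo libraries. Glyma.07G176200.1 had 0, 0, 18.5 and 61.6 RPKM and at most 0.0853 RPKM in the embryo. The dry seed coat exceeded the 200–300 mg one by 2.84 times and 3.34 times in this pair, against 1.73 times for Glyma.20G011400.1, 1.24 times for Glyma.20G011300.1 and 2.004 times for Glyma.20G011500.1. The counting intervals of these 5 ratios did not overlap, so the members differed in this step by more than the counting error these cover. Reads could align to several of these models, and the intervals take no account of such shared reads.

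The Glycine rich protein family domain (PF07172) was found in 19 models. Of these 15 reached 1 RPKM in at least 1 library and 3 had no hit in any. The dry seed coat was the library of highest level for 5, the furled leaf for 5, the root for 3, and W55 and the dry cotyledon for 1 each. Glyma.20G011400.1 made up 51.9% of the family's summed RPKM in the 200–300 mg seed coat and 49.7% in the dry one. In the embryo at desiccation and in dry seed it made up 10.4% to 16.9%, and in the 25–50 mg seed coats 1.97% in W55 and 0.542% in Williams.

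Other members had their highest levels elsewhere. Glyma.14G052000.1, whose Arabidopsis match is the glycine-rich protein GRP3S, had 1.82 and 3.30 RPKM in the 200–300 mg and dry seed coats, against 174 and 270 RPKM in cotyledons of those stages, and 246 RPKM in the leaf. Glyma.09G188800.1 (57.7 RPKM) and Glyma.02G265800.1 (37.1 RPKM) were highest in the leaf. Glyma.05G057100.1 (35.0 RPKM) and Glyma.17G139700.1 (15.8 RPKM) were highest in the root. The family summed to 16078 RPKM in the 200–300 mg seed coat, or 4.43% of that library, and to 29053 RPKM, or 5.00%, in the dry one.

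**Figure D4:**
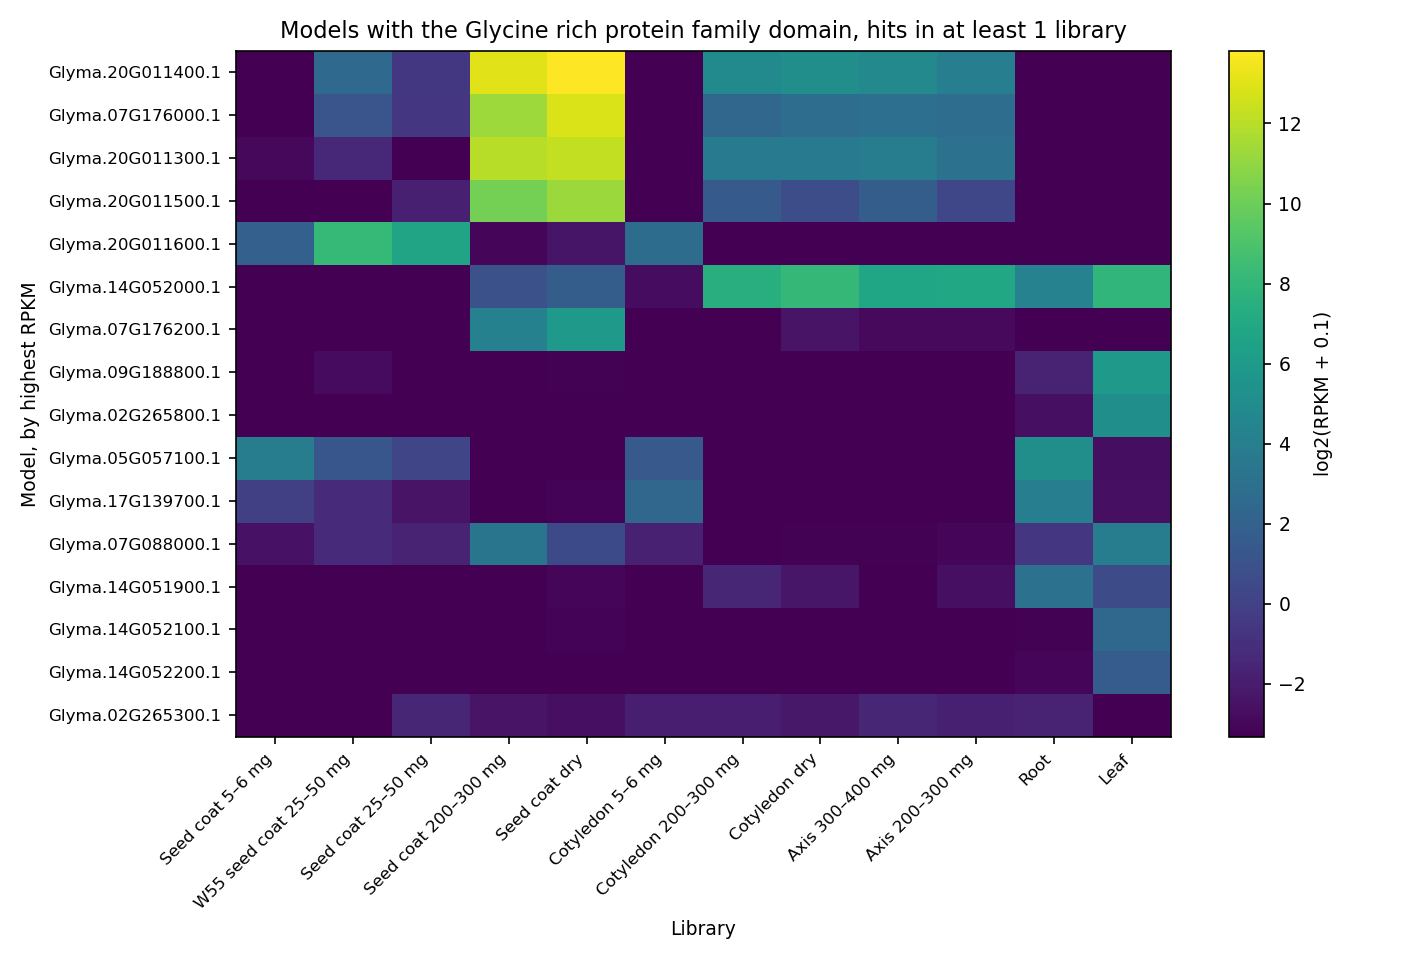
log2(RPKM + 0.1) of the 16 models with the Glycine rich protein family domain that had a hit, as rows, in each of 12 libraries, as columns. The top 4 rows are brightest in the 2 maturing seed coats, Glyma.20G011600.1 in the 25–50 mg seed coats of W55 and Williams, and lower rows mainly in leaf or root.

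The models most like Glyma.20G011400.1 were found by Pearson's r of log2(RPKM + 0.1) over the 12 libraries among the 41060 models that reached 1 RPKM somewhere. The value is a description over few points, several of which share seed stage and sequencing format. It was over 0.9 for 52 models and over 0.99 for 1. The 10 highest were Glyma.07G176000.1 (r = 0.991), Glyma.20G011300.1 (0.979), Glyma.02G258500.1 (0.974), Glyma.14G052900.1 (0.973), Glyma.19G157700.1 (0.973), Glyma.17G055600.1 (0.965), Glyma.15G083200.1 (0.954), Glyma.02G194200.1 (0.952), Glyma.20G011500.1 (0.9499) and Glyma.01G022300.1 (0.946). Of the 10, 3 hold the family domain and 4 have neither a Pfam domain nor an Arabidopsis match.

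They fell into abundant and scarce transcripts. In the 200–300 mg seed coat 5 of the 10 reached 1000 RPKM, and the other 5 stayed under 100 RPKM in every library. Among the abundant ones, the unannotated Glyma.02G258500.1 had 1208 and 1783 RPKM and the unannotated Glyma.14G052900.1 had 1900 and 3841 RPKM in the 200–300 mg and dry seed coats. Among the scarce ones, Glyma.15G083200.1, whose Arabidopsis match is the abscisic acid receptor PYL6, had 28.8 and 73.9 RPKM there. Glyma.19G157700.1, a match of an ovate family repressor, had 10.2 and 11.3 RPKM, and Glyma.01G022300.1, a glycosyltransferase match, had 1.38 and 1.77 RPKM.

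The 5 abundant models and Glyma.20G011400.1 together summed to 19155 RPKM in the 200–300 mg seed coat, 5.28% of the library, and to 34611 RPKM in the dry seed coat, 5.96%. The share of Glyma.20G011400.1 in this sum was 43.5% and 41.7% in these seed coats, 46.3% and 55.5% in the 200–300 mg and dry cotyledons, and 46.3% and 45.5% in the 300–400 and 200–300 mg axes. The 5 were picked for their likeness to Glyma.20G011400.1 over these same libraries, so a similar share follows in part from that choice. Single models of the sum varied more. Glyma.20G011500.1 was at 14.7% and 17.0% of Glyma.20G011400.1 in the 200–300 mg and dry seed coats, against 10.2% and 4.36% in the cotyledons, and Glyma.14G052900.1 was at 22.8% in the 200–300 mg seed coat, against 9.52% in the axis.

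Other gene groups were set beside it between 25–50 and 200–300 mg, using lists chosen by domain or annotation and counting members measured at 1 RPKM or more in one or both libraries. The median log2 difference of all models was −0.26, and 9.02% of all models were at least 4-fold higher and 19.9% lower. Of 9 measured Glycine rich protein family models 7 were at least 4-fold higher at 200–300 mg and 2 lower, with a median of 7.54. Those 7 reached 1 RPKM only at 200–300 mg and the 2 only at 25–50 mg, so the split follows largely from that limit. The 7 include Glyma.20G011400.1, chosen for its level there, and 3 of the 10 models picked as most like it. Of 37 measured models annotated as glycine-rich in wording of any kind, 10 were higher and 10 lower, with a median of 0.01.

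Lists of wall and cell surface proteins and of cutin and suberin synthesis were mostly lower at 200–300 mg, beside 19.9% of all models at least 4-fold lower and 9.02% higher. Of 20 extensins, hydroxyproline-rich wall glycoproteins, 12 were at least 4-fold lower and 2 higher (median −4.10), and Glyma.09G092700.1 had 4.85 RPKM at 200–300 mg, against 2172 RPKM at 25–50 mg. Of 52 arabinogalactan and fasciclin-like proteins, proteoglycans of the cell surface, 36 were lower and 2 higher (median −3.26). Of 15 BURP domain proteins 10 were lower and 2 higher (median −3.99), with Glyma.07G176700.1 at 0.0180 RPKM, against 2106 RPKM. Of 23 cutin and suberin synthesis models 15 were lower and 4 higher (median −5.04), and of 2 measured proline-rich proteins 1 was lower.

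Groups tied to drying and cell death were mostly higher at 200–300 mg, beside 9.02% of all models at least 4-fold higher and 19.9% lower. All 24 measured LEA and dehydrin models were at least 4-fold higher, with a median of 8.88. Of 6 S1-P1 nucleases, enzymes that degrade nucleic acids in dying cells, 4 were higher and 1 lower (median 4.28). Of 11 vacuolar processing enzymes, proteases of the vacuole, 6 were higher and 1 lower (median 3.91), and Glyma.17G230700.1 had 327 RPKM, against 21.7 RPKM at 25–50 mg.

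The lists were also compared between the dry and the 200–300 mg seed coat, on the deposited scale only. The median over all models was −0.97, with 1.15% at least 4-fold higher and 26.5% lower. The median was 0.82 for 7 Glycine rich protein family models (0 at least 4-fold higher, 1 lower) and 0.85 for 24 LEA and dehydrin models (0 higher, 1 lower). It was −6.37 for 5 S1-P1 nucleases (4 lower), −1.77 for 10 vacuolar processing enzymes (4 lower) and −3.98 for 25 arabinogalactan and fasciclin-like proteins (21 lower). The glycine-rich and LEA medians were above the overall median. The 7 family models include the gene described here, chosen for its maturing seed coat level, and 3 of the 10 most like it. Those were picked over libraries that include both compared here, so the family median is not independent of these choices. The 4 of 10 vacuolar processing enzymes were not far from the share over all models.

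The LEA list differed from Glyma.20G011400.1 in where else it was found. It summed to 12085 and 25686 RPKM in the 200–300 mg and dry seed coats, against 23939 and 25193 RPKM in the cotyledons of those stages. The dehydrin Glyma.09G185500.1, its most abundant member, had 3048 RPKM in the 200–300 mg seed coat, against 4050 RPKM in the cotyledon, while Glyma.20G011400.1 had 8337 RPKM, against 27.6 RPKM.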

How the data were processed

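RNA was extracted by the authors from freeze-dried tissue and sequenced on Illumina instruments, 1 library per condition. The authors aligned reads with Bowtie 1 to soybean Glyma models, allowing mismatches and several alignments per read, and deposited RPKM for 1 splice variant per gene, the first. All 12 value columns were used as deposited. Mapped totals were set as the smallest that made hits whole for 48 models of known length. The lengths of 54020 of 56044 models were then recovered from the steps of the RPKM values, and hits were whole within 0.001. The recovered length equaled the known one for 47 of those 48 models. This is no independent check, because the same lengths had set the totals. A recovered length is the shortest possible, so hits of a sparse model could be too low by a whole factor. Intervals are exact 95% Poisson (levels) or Clopper-Pearson (ratios) and cover counting error only. Nothing says that tissue came from separate plants, and no test was run.

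Ranks and shares past 4-fold used log2(RPKM + 0.1) over models that reached 1 RPKM in one or both libraries. Models named were the gene itself, the 10 with the highest r, the 10 highest in each maturing seed coat, the 3 neighbors on each side and the 3 highest of each list; other named models were chosen after their values were seen. The gene and the lists were chosen with earlier results of these data known. Sequences and coordinates were not analyzed here, since 0 models matched the RefSeq table by name. Python 3.11.15, numpy 2.4.6, pandas 2.3.3, scipy 1.17.1 and matplotlib 3.10.9 were used, and the procedure was tested on simulated data.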

Additional observations from a re-analysis of the deposited data

How the results depend on the processing

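No paired analysis was possible because each condition had 1 library and carried no replicate number, so no library could be left out of a group either. No ratio reversed. The ratio of the dry to the 200–300 mg seed coat, 1.73 as deposited, was 1.08 on the TPM scale, 1.90 after rescaling without the unannotated chromosome 13 models, 2.78 with median-ratio scaling and 2.36 with the hits of those models taken out of the totals, an alternative chosen after seeing the data. In that order the dry seed coat over the dry cotyledon was 281, 430, 584 and 524. The 200–300 mg seed coat was 267 times the cotyledon with median-ratio scaling, 479 times the axis without the chromosome 13 models and 473 times with median-ratio scaling. The dry over the 200–300 mg cotyledon was 1.16 as TPM. The lower bound of the 25–50 mg over the 5–6 mg seed coat, 20.1 as deposited, was 48.0 as TPM and 8.04 with median-ratio scaling. The cause of these shifts was not tested. Counts of models at least 4-fold higher (2962 for 200–300 over 25–50 mg seed coat, 301 for dry over 200–300 mg seed coat, 5351 over the cotyledon, 5073 over the axis, 967 in dry seed and 71 in W55) were 1658, 180, 2391, 2394, 433 and 6 with a pseudocount of 1. With a minimum of 5 RPKM they were 1907, 2334, 2362, 456 and 15, leaving out dry over 200–300 mg, which stayed near. With a 2-fold limit they were 6258, 971, 8879, 8529, 1801 and 884, and with an 8-fold limit 1613, 111, 3345 (axis), 560 and 12. With no minimum 273 models were higher in W55. Of the 10 most alike models 3 were kept with Spearman's rho, 5 with seed libraries only and 7 to 9 otherwise, including without the leaf library, an alternative chosen after seeing the data. The family's share was 4.81% at 200–300 mg and 9.55% in dry seed coats without the chromosome 13 models. Depth limited the 25–50 mg values (7 hits in Williams) and the leaf, where 0 hits allowed 0.333 RPKM.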

Other observations

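A wider search, with limits chosen after seeing the values, asked which models were as restricted as Glyma.20G011400.1. Of 1689 models with at least 100 RPKM in a library, 10 (0.592%) had at least 99% of their summed RPKM in the 2 maturing Williams seed coats. They were the 4 glycine-rich models Glyma.20G011300.1, Glyma.20G011400.1, Glyma.20G011500.1 and Glyma.07G176000.1, the 3 unannotated models Glyma.02G258500.1, Glyma.14G052900.1 and Glyma.13G324100.1, and 3 models of other families. Glyma.02G042500.1, a class I chitinase with a chitin recognition domain, had 875 and 1356 RPKM in the 200–300 mg and dry seed coats and at most 2.08 RPKM elsewhere. Glyma.08G235400.1, a trypsin and protease inhibitor, had 126 and 376 RPKM there and at most 1.38 RPKM elsewhere.

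The remaining one, Glyma.12G199900.1 of the transferase family, had the opposite order, with 0.185 RPKM in the dry seed coat against 101 RPKM at 200–300 mg. Glyma.13G324100.1 was also lower in the dry seed coat, with 70.8 RPKM against 141 RPKM, and the other 8 were higher. Glyma.13G278000.1, the defensin-like model that exceeded Glyma.20G011400.1 at 200–300 mg, did not meet the 99% limit. It had 9583 and 9932 RPKM in the seed coats and 706 and 646 RPKM in the cotyledons of those stages, but only 27.9 RPKM in the 200–300 mg axis.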
